A study of Drosophila melanogaster with 24 samples.

Results

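The mitochondrial ribosomal protein genes of Drosophila melanogaster were examined in the abdominal carcass of adult females. Members were all genes whose FlyBase symbol starts with mRpL or mRpS, with no expression value used in the choice. The rule found 73 genes among the 14220 genes to which the deposited transcripts could be joined. By symbol, 47 belong to the large and 26 to the small subunit of the mitochondrial ribosome.

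The mitochondrial ribosome translates the few mRNAs of the mitochondrial genome, which encode core subunits of the respiratory chain and of ATP synthase. Its RNAs are made in the mitochondrion, whereas its proteins are encoded in the nucleus, translated in the cytosol and imported. Many of these proteins descend from bacterial ribosomal proteins and others were added in the mitochondrial lineage. Fat body, the main tissue of the abdominal carcass, stores fat and glycogen and secretes yolk and blood proteins.

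RNA was sequenced in 24 libraries, each from 1 pool of 10 carcasses of mated females about 4 days old. The carcass held abdominal fat body on the body wall, after gut, gonads and most of the Malpighian tubules were taken out. The populations fall into an evolutionary regime named Selected (S1 to S6) and another named Control (C1 to C6), with 6 replicate populations each, and larvae of every population grew on either standard or poor food. Poor food contained yeast, sugars and cornmeal at 0.25 of their standard concentration, and adults of all groups ate standard food, so diet means larval food throughout. The series title names an evolved and a plastic response of adults to undernourished larval life, which regime and diet address. This gives 4 groups of 6 libraries: Control standard, Control poor, Selected standard and Selected poor. The populations are the replicates, and 1 pool per population and diet leaves the spread within a population unmeasured.

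Groups follow the characteristics of each library in the deposited labels. The titles in the same labels name the other diet in 24 of 24 libraries and the other regime in 12, and 0 of 24 titles name the same population. Under the titles the diets would be exchanged and the regimes and the pairs of libraries made up otherwise, and no result was computed that way. Depth was 29.4 to 31.5 M estimated counts in 23 libraries and 22.4 M in S2 on standard diet, where ribosomal RNA pseudogenes took 9.3% of counts. In the other libraries that share was 0.73 to 2.59% on standard and 2.41 to 5.42% on poor diet. Of 27 germline and oocyte markers, genes of a tissue that the dissection removes, each had counts in at least 1 library. Their summed level ranged from 289 to 3200 CPM (counts scaled to a common library size). Their mean log2 CPM ran from -0.17 in C2 to 6.07 in S1, both on standard diet. In that C2 library the sum was still 362 CPM, so it rested on part of the markers. Fat body markers were present in all libraries, with a summed level of 14500 to 137000 CPM over 12 genes. In such bulk samples, fewer cells of a type and less RNA per cell cannot be told apart.

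Of the 73 genes, 40 carry a number in the range of the bacterial ribosomal proteins in their symbol (28 large, 12 small) and are called bacterial-type here, and 31 a higher number, used for mitochondria-specific proteins (19 large, 12 small). The remaining pair, mRpS18A and mRpS18B, has relatives of bacterial S18 and is kept apart, because their mammalian homologs include a protein placed in the large subunit. The genes are spread over the genome, with 11 on the X chromosome, 12 each on 2L and 2R, 17 on 3L and 21 on 3R in annotation BDGP6.54. Most are compact, and 55 have 1 annotated transcript. A coding gene on the other strand started within 500 bp upstream of the start of 51 members, or 69.9%, compared with 24.9% of 13895 coding genes. Exons of 43 members overlapped those of another gene, 42 of them on the opposite strand, and 30 had no such overlap. The use of strand in counting is not stated, so reads in those overlaps cannot be told apart from reads of the partner.

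All 73 genes were expressed in every library. The lowest value of any member was 82 estimated counts, for mRpL34, and together they took 0.1161 to 0.1995% of the counts of a library. Levels between genes are compared in TPM, which accounts for transcript length. The median member had a mean level of 26.7 TPM, and 69 of 73 lay within 2-fold of it. The summed level of the 73 genes ranged from 1810 TPM in C2 on standard diet to 3340 TPM in S1 on standard diet.

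The top of the order was held by mRpS5 (FBgn0287187, 3L 24537236-24543534), a small subunit protein related to bacterial S5, at 95.6 ± 12 TPM (SD over 24 libraries). Next came mRpS9 (FBgn0037529, 3R 7889277-7902667) at 87.1 ± 8.24 TPM, whose exons overlap the mitochondrial arginyl-tRNA synthetase gene ArgRS-m on the opposite strand. The ranges of these 2 genes over the libraries overlapped, since mRpS5 went down to 67.5 TPM and mRpS9 up to 103 TPM. After them came mRpL28 (FBgn0031660, 2L 4973976-4975316) at 60.0 ± 3.95 TPM, which did not exceed 69.6 TPM in any library. The stalk protein gene mRpL12 (FBgn0011787, 3L 8956791-8957584), whose protein helps to recruit translation factors to the ribosome, followed at 53.2 ± 15.5 TPM with a range of 32.6 to 99.3 TPM.

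At the other end, mRpL11 (FBgn0038234, 3R 14511838-14512691), the protein at the base of the stalk in bacteria, had 11 ± 3.17 TPM. Its neighbours in the order were mRpS18B (FBgn0032849, 2L 20096329-20097253) at 16.5 ± 5.11 TPM and mRpL48 (FBgn0031357, 2L 1710462-1711465) at 16.8 ± 3.82 TPM. The highest mean level was 8.69 times the lowest. The subunits had similar median levels, 26.5 TPM for large and 28 TPM for small subunit genes, and so did bacterial-type (28.4 TPM) and mitochondria-specific genes (26.1 TPM). The order by mean log2 CPM, which does not account for transcript length, hardly moved between the 4 groups. Its rank correlation was at least 0.97 for every pair of groups over the 73 genes. TPM recomputed from counts and the unweighted mean effective length of a gene's transcripts gave nearly the same order as TPM (rank correlation 0.98). For the 55 members with 1 annotated transcript this was largely fixed in advance.

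**Figure D1:**
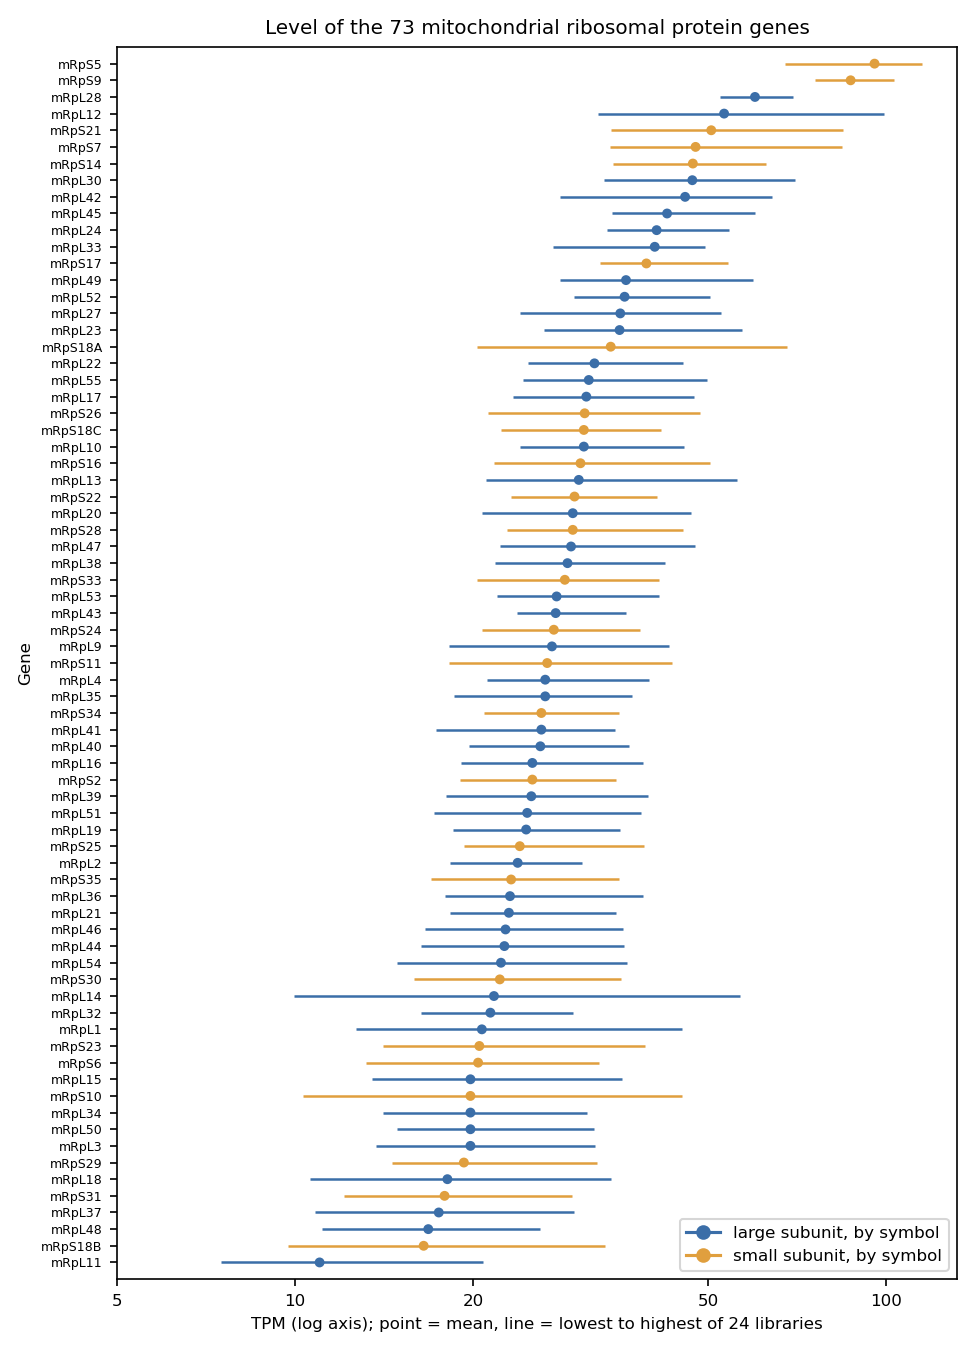
Level of the 73 mitochondrial ribosomal protein genes in TPM on a log axis, with the mean of 24 libraries as a point and the lowest to highest library as a line, coloured by subunit. mRpS5 and mRpS9 stand above the rest at 95.6 and 87.1 TPM and mRpL11 stands lowest at 11 TPM.

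Between libraries the genes varied little and largely together. The SD of log2 CPM over 24 libraries had a median of 0.22 over the members, against 0.33 over all 10184 tested genes, and 27% of tested genes had an SD below the member median. The most variable member was mRpL14 (SD 0.51), a large subunit protein related to bacterial L14, and the SD of the others reached down to 0.12. Over the 24 libraries the median correlation of a pair of members was 0.63, and 97.6% of the 2628 pairs had a positive correlation. These libraries share depth, normalisation and tissue make-up, so the correlations are a description.

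A member correlated with the mean of the other 72 at a median r of 0.81, and 67 of 73 lay above 0.5. The best follower was mRpS30 at 0.94, whose mammalian homolog lies in the large subunit in spite of its name, and mRpL12 stood at 0.92. The 6 genes below 0.5 were mRpS9 (0.07), mRpS5 (0.09), mRpL28 (0.19), mRpL43 (0.31), mRpS14 (0.34) and mRpS18C (0.46), and they were singled out after their values were seen. The 3 members with the highest TPM were thus also the 3 least tied to the rest. Exons of 5 of these 6 overlap another gene, and mRpS5 overlaps none.

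Libraries differed in how the whole set stood, here measured as the median over members of log2 CPM minus the mean of each gene. The highest was S1 on standard diet at 0.37, where 70 of 73 members stood above their own mean and 32 reached their highest value of all libraries. C4 on standard diet followed at 0.31, with the highest value of 17 members. The lowest was C3 on poor diet at -0.36, where 2 members stood above their mean and 30 had their lowest value. S5 on poor diet held the lowest value of 12 further members, at -0.23.

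**Figure D2:**
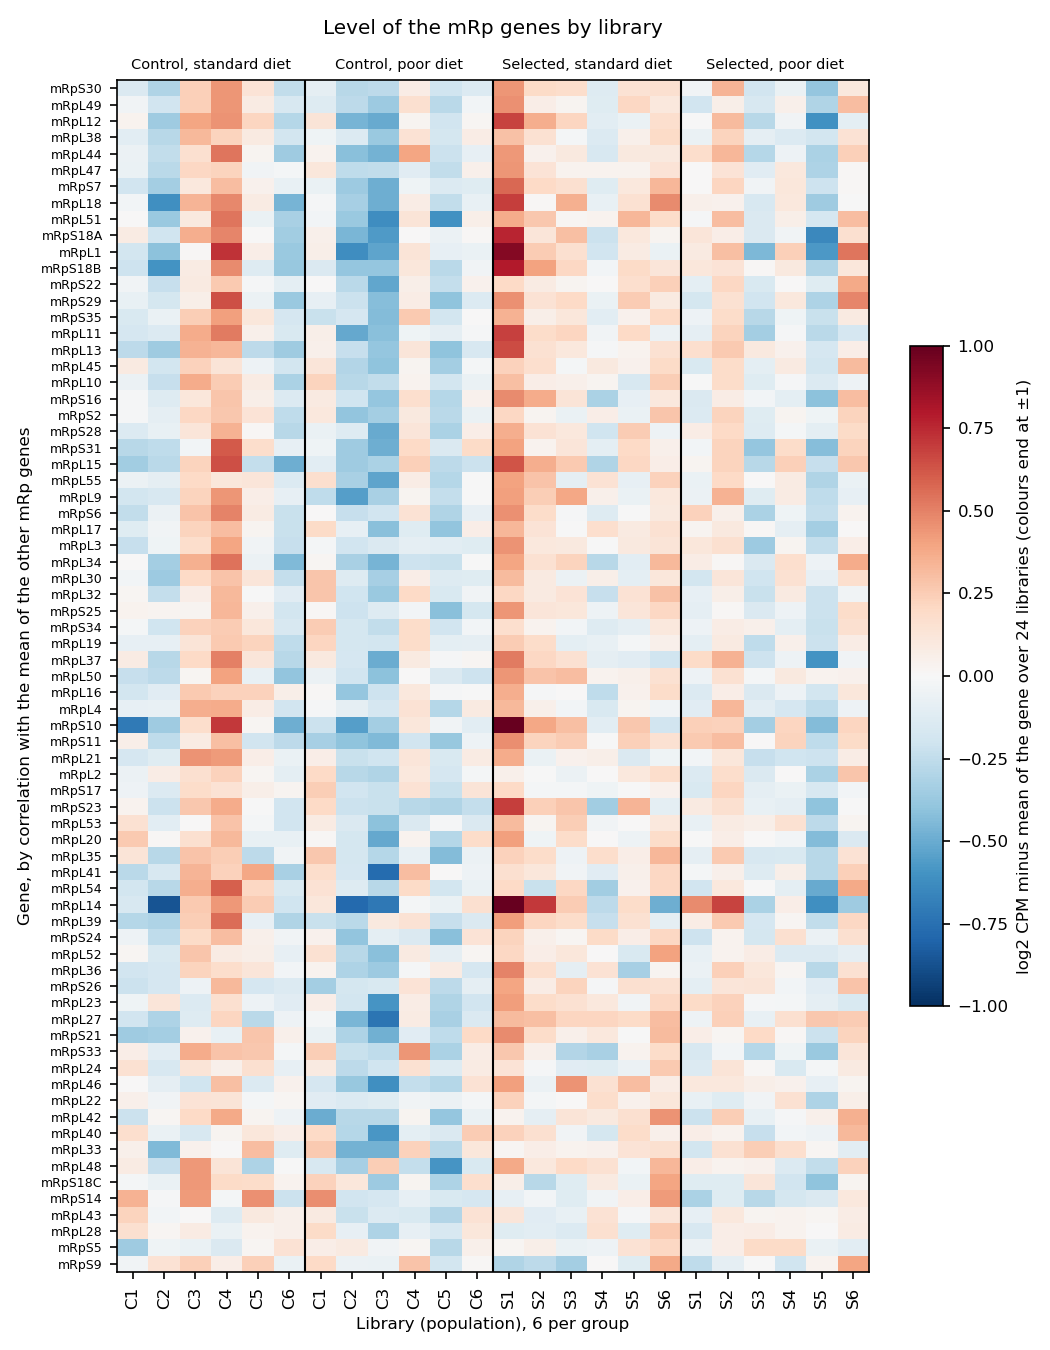
Log2 CPM of each of the 73 genes minus its mean over the 24 libraries, with libraries in 4 groups of 6 and genes ordered by their correlation with the mean of the other members. Colours run from -1 to 1 and values beyond take the end colour. The columns of S1 and C4 on standard diet are mostly red (70 and 68 members above their mean), those of C3 on poor diet mostly blue, and the bottom rows, among them mRpS5 and mRpS9, do not follow this pattern.

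The comparison of larval diets asks whether adults raised on poor food carry another level of these transcripts than adults of the same population raised on standard food. On poor diet, 71 of 73 members had a lower fitted level, or 97.3% against 55.7% of all tested genes. Members vary together (median pairwise r of 0.63), so here and below such counts of sign are a description and not 73 separate results. The differences were small, with a median log2 fold change of -0.14 (poor minus standard), against -0.03 over all tested genes, and a range from -0.28 to 0.02. No member passed the test: edgeR called 0 of 73 at an adjusted p below 0.05, where it called 1.13% of all tested genes. At an unadjusted p below 0.05 there were 22 members, or 30.1%, all of them lower on poor diet, against 17.6% of tested genes. With each population left out in turn, that number ran from 10 to 30. Its lower values were 10 without C3, 12 without S1 and without S5, 13 without C4, and 14 without C5 and without S3. The shares of all tested genes in these refits are not given here. DESeq2 called 5 members (mRpL48, mRpL9, mRpL22, mRpL46 and mRpS25), or 6.85%, where it called 5.6% of all genes with an adjusted p, so the share of members is near its background. edgeR with the germline score as covariate called 2, or 2.74%, against 3.95% of tested genes. limma on voom values with population as a random effect called 0 members, against 1.62% of tested genes. limma on the authors' deposited log2 values called 0 of the 71 members in that table, against 1.59% of its genes.

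By subunit, all 47 large subunit genes had negative values, with a median of -0.13, and so had 24 of 26 small subunit genes, with a median of -0.15. Of the mitochondria-specific genes 31 of 31 were negative, as were 38 of 40 bacterial-type genes. Of the genes with no exon overlap 29 of 30 were negative, with a median of -0.15, and of those with an overlap 42 of 43, with a median of -0.13. Differences between these subgroups were not tested.

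The smallest p belonged to mRpL48, a mitochondria-specific large subunit protein. Its level on standard diet had a lowest, median and highest value of 6.81, 9.15 and 11.4 CPM over 12 populations, and on poor diet 5.58, 7.62 and 10.0 CPM. All 12 populations were lower on poor diet although the 2 ranges overlap widely, since C5 was lowest and C3 highest on both diets. The log2 fold change was -0.21 ± 0.05 (SE, adjusted p = 0.0758, edgeR), and the adjusted p was 0.00923 in DESeq2 and 0.0381 with the germline score as covariate.

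The second member that was lower in 12 of 12 populations was mRpL22 (FBgn0030786, X 16783933-16785092), the relative of a bacterial protein that lines the exit tunnel. It ran from 23.2 over 24.7 to 28.1 CPM on standard diet and from 19.2 over 22.8 to 26.5 CPM on poor diet. The ranges overlap, and the fold change of -0.14 ± 0.04 is one of the smaller ones with this regularity (adjusted p = 0.137). Another 2 members, mRpS25 and mRpL42, were lower in 11 populations. In all, 4 members (5.48%) were lower in at least 11 of 12 populations, against 1.53% of all tested genes. At least 9 of 12 populations were lower for 24 members, or 32.9%, against 12.3%.

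The lowest fitted values belonged to mRpL12 and mRpL11, proteins of the stalk and its base. For mRpL12 the level was 22, 32.1 and 44.9 CPM (lowest, median, highest) on standard and 18.5, 26.8 and 35 CPM on poor diet. S1 gave the high end on standard diet and S5 the low end on poor diet, and 9 of 12 populations were lower on poor diet. Its log2 fold change was -0.28 ± 0.10 (adjusted p = 0.179).

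For mRpL11 the corresponding levels were 5.16, 6.30 and 9.36 CPM on standard and 4.05, 5.45 and 6.77 CPM on poor diet. With 8 of 12 populations lower, the log2 fold change was -0.28 ± 0.11 (adjusted p = 0.218). mRpS18A followed at -0.25 ± 0.11 and mRpL18 at -0.24 ± 0.11. mRpL9, a relative of a bacterial large subunit protein, had 13.9, 16.8 and 21.5 CPM on standard and 10.8, 14.7 and 20.1 CPM on poor diet. It was lower in 9 of 12 populations, with a log2 fold change of -0.24 ± 0.07 (adjusted p = 0.125, and 0.0285 in DESeq2).

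The upper end held the 3 most highly expressed members. mRpS5 had a log2 fold change of 0.02 ± 0.07, with a median of 90.5 CPM on standard and 93.7 CPM on poor diet, and mRpS9 of 0.01 ± 0.07, with 88.0 and 87.2 CPM. The sign of mRpS5 turns without C1 and that of mRpS9 without C1, C4, S2, S3 or S5, so neither gene has a direction. mRpL28 stood at -0.04 ± 0.05, mRpS34 at -0.05 ± 0.07 and mRpL33 at -0.05 ± 0.09.

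**Figure D3:**
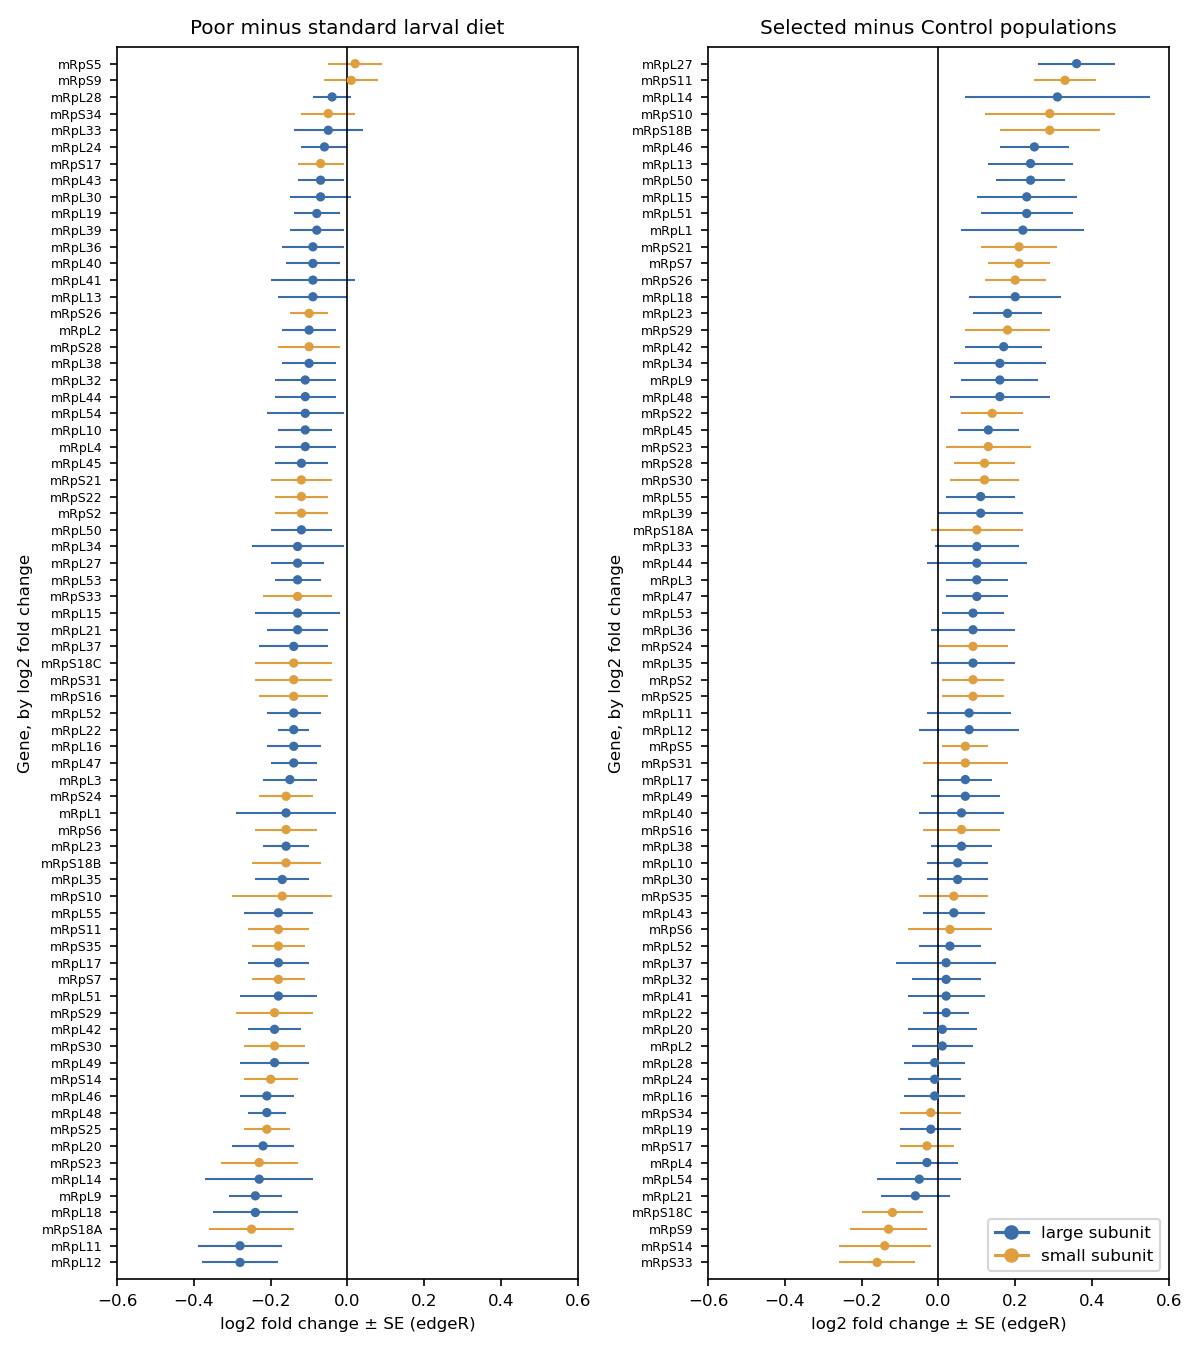
Fitted log2 fold change of each of the 73 genes with its SE from edgeR, for poor minus standard diet (left) and Selected minus Control populations (right), ordered by value within each panel and coloured by subunit. On the left 71 of 73 points lie below 0, and on the right 60 of 73 lie above 0, and 0 genes passed the adjusted test in either.

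The diet difference was uneven between populations. Its median over members was -0.53 in C3, -0.38 in S1, -0.29 in S5, -0.28 in C5, -0.23 in C4 and -0.18 in S3. In C2 and S6 it was -0.09 and -0.05, in S2 and S4 it was 0.04 each, and in C1 and C6 it was 0.12 and 0.14. Most members were thus lower on poor diet in 8 of 12 populations, 4 in each regime, and 72 of 73 were lower in C3, in C5 and in S1. In C6 only 11 of 73 were lower.

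The germline marker score, the mean log2 CPM of the 27 markers, moved in the same libraries. From standard to poor diet it went from 4.43 to -0.02 in C3, from 5.50 to 1.35 in S3 and from 1.11 to 3.13 in C6. In C5, however, it went from 2.91 to 4.19 while 72 members were lower on poor diet. Over 12 populations the diet difference of the members correlated with that of the germline score at r = 0.74, and at 0.66 without C3 and S3. The score itself averaged 3.31 on standard and 2.95 on poor diet, with 6 of 12 populations lower. With the score as a covariate the median log2 fold change was -0.11 and 71 members were negative. The fat body score, over 12 markers of which 0 were at zero in all libraries, averaged 6.79 on standard and 6.24 on poor diet and was lower in 11 of 12 populations. The summed fat body level ran from 49300 to 137000 CPM on standard and from 14500 to 79500 CPM on poor diet. Its diet difference correlated with that of the members at -0.10 over 12 populations, and its part in the result was not tested.

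Other markers differed with diet too. The corresponding correlation was -0.72 for hemocyte, -0.62 for Malpighian tubule, -0.59 for neuron, -0.39 for oenocyte, -0.33 for muscle and -0.18 for midgut markers. Fitted diet values were positive for 11 of 11 neuron, 15 of 17 muscle and 9 of 11 hemocyte markers, with medians of 0.33, 0.17 and 0.14, and 4 of each list had an unadjusted p below 0.05, all higher on poor diet. Of all tested genes, 17.6% had an unadjusted p below 0.05 for diet. Oenocyte markers were positive in 6 of 6. Values were negative for 7 of 10 Malpighian tubule markers (3 lower and 1 higher at that threshold) and 16 of 21 midgut markers (1 lower). edgeR called 0 in the neuron, muscle and hemocyte lists and 4 of the 12 fat body markers, all lower on poor diet, where it called 1.13% of tested genes. Summed hemocyte levels overlapped, with 1850 to 3740 CPM on standard and 2200 to 3590 CPM on poor diet.

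Ribosomal RNA pseudogenes took a median of 1.6% of counts on standard and 3.09% on poor diet, and 11 of 12 populations had more of them on poor diet. The highest shares on poor diet belonged to S5 (5.42%) and C3 (4.71%), which stood low for the members, and the lowest share of all to C4 on standard diet (0.73%), which stood high. Other libraries went the other way. On poor diet C5 (2.41%) and C2 (2.45%) had the lowest shares and stood low (-0.23 and -0.26), and S6 (3.74%) stood high (0.12). Over 12 populations the diet difference of this share correlated with that of the members at -0.37, and at -0.32 without S2. Over libraries the correlation was -0.18, and -0.46 without S2 on standard diet. Within groups it was -0.64 in Control standard, -0.51 in Control poor, -0.62 in Selected poor and 0.33 in Selected standard (5 libraries). Leaving the pseudogenes out of the fit gave a diet median of -0.14. The part of these markers and of this share in the diet result was not tested.

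**Figure D4:**
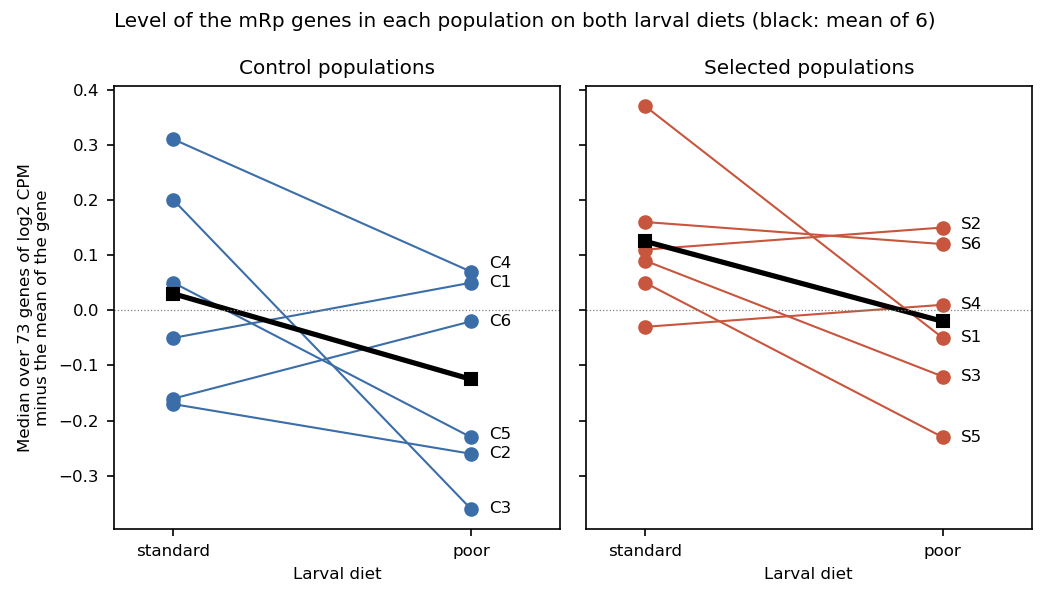
Median over the 73 genes of log2 CPM minus the mean of each gene, for each population on standard and on poor diet, Control on the left and Selected on the right, with the mean of 6 populations in black. The lines of C3 (from 0.20 to -0.36) and S1 (from 0.37 to -0.05) go down most, and those of C1 and C6 go up.

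Fitted within each regime, the diet contrast had a median log2 fold change of -0.14 in Control and -0.12 in Selected populations. Of the members, 69 of 73 were negative in both, or 94.5%, against 39.4% of all tested genes. These fits share no library, but within each of them the members vary together. In each regime, most members were lower on poor diet in 4 of 6 populations. edgeR called 0 members in Control populations, where it called 0% of tested genes, and 2 had an unadjusted p below 0.05 (2.74%, against 3.86%). In Selected populations it called 0 members against 0.628% of tested genes, and 2 had an unadjusted p below 0.05, against 10.6%. DESeq2 called 0 members in both, against 0.153% of genes in Control and 3.88% in Selected populations. The medians rest on few populations, as the Control value was -0.06 without C3 and the Selected value -0.07 without S1 and also without S5.

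The comparison of regimes asks whether the Selected populations differ from the Control populations over both diets. In Selected populations 60 of 73 members had a higher fitted level (82.2%, against 51.7% of all tested genes). The median log2 fold change was 0.09 (Selected minus Control), against 0.01 over all tested genes, and the range was -0.16 to 0.36. edgeR called 0 of 73, where it called 0.0295% of tested genes, and 9 members had an unadjusted p below 0.05, all higher in Selected populations (12.3%, against 10.7%). DESeq2 called 2 members (2.74%, against 2.18% of genes) and limma on voom values 1 (1.37%, against 1.23%), both near their background, and limma on the authors' deposited log2 values called 0 of 71, against 0.0572%. In 0 members did all 6 Selected populations lie above all 6 Control ones (0.422% of tested genes) or below them (0.363%).

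The most separated member was mRpS11 (FBgn0038474, 3R 17072732-17073795), related to a bacterial protein of the small subunit platform. Its lowest, median and highest level was 11.2, 12.6 and 14.8 CPM over 6 Control and 14.2, 15.6 and 18.1 CPM over 6 Selected populations. The ranges overlap only where C4, the highest Control population, passes S5, the lowest Selected one, and the other 5 Selected populations lie above every Control population. The log2 fold change was 0.33 ± 0.08 (adjusted p = 0.178, edgeR, and 0.0158 in DESeq2).

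mRpL27 (FBgn0053002, 2L 4458595-4459638), a large subunit protein whose bacterial relative reaches towards the site of peptide bond formation, had the highest fold change. It had 9.51, 10.9 and 13.9 CPM in Control and 13.2, 14.5 and 15.3 CPM in Selected populations. C4 again was the high Control population, and 4 Selected populations lay above it. The log2 fold change was 0.36 ± 0.10 (adjusted p = 0.205, and 0.0264 in DESeq2 and 0.0343 in limma on voom values).

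High values of single populations shaped other members at this end. mRpL14 had 5.20, 9.17 and 10.8 CPM in Control and 6.90, 8.95 and 17.5 CPM in Selected populations. S1 was the highest of them, and S2 also stood high, with the highest Selected value on poor diet (14.8 CPM). Its median was lower in Selected than in Control populations although the fitted log2 fold change was 0.31 ± 0.24, and that value was 0.13 without S1, 0.20 without C2 and without S2, and -0.06 with the germline score as covariate. mRpS10 (0.29 ± 0.17) and mRpS18B (0.29 ± 0.13, adjusted p = 0.43) also had S1 as their highest and C2 as their lowest population.

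Lower fitted levels in Selected populations were found for 13 members, led by small subunit genes. mRpS33 stood at -0.16 ± 0.10, with a median of 9.87 CPM in Control and 9.01 CPM in Selected populations. mRpS14 stood at -0.14 ± 0.12, mRpS9 at -0.13 ± 0.10, mRpS18C at -0.12 ± 0.08 and the large subunit gene mRpL21 at -0.06 ± 0.09. The ranges of the regimes overlap in each of these genes, and their adjusted p lay at 0.643 or above. mRpS14 shares exon sequence with CG32533 on the same strand and Naa15-16 on the other, so its reads are uncertain.

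The median was sensitive to single populations. It was 0.05 without C2 and 0.05 without S1, and the number at an unadjusted p below 0.05 was 3 without S1, 4 without C2 and without S2, 5 without C1 and 19 without C4. The shares of all tested genes in these refits are not given here. Markers of other tissues were compared between the regimes as well. All 27 germline markers had a higher fitted level in Selected populations, but 0 had an unadjusted p below 0.05 in edgeR, against 10.7% of tested genes. At that threshold 5 of 11 hemocyte markers were lower, 2 of 17 muscle markers higher and 1 of 21 midgut markers lower in Selected populations. The fat body, Malpighian tubule, neuron and oenocyte lists had 0. The germline score averaged 2.56 ± 1.68 (SD, n = 6) in Control and 3.71 ± 1.12 in Selected populations, and the summed germline level ran from 362 to 2700 CPM (median 708) and from 289 to 3200 CPM (median 1480) over 12 libraries each. The hemocyte score, over 11 markers of blood cells of which 0 were at zero in all libraries, averaged 5.35 ± 0.28 in Control and 4.97 ± 0.14 in Selected populations (summed level 1850 to 3740 and 1940 to 2920 CPM), and its part in the result was not tested. With the germline score as a covariate the median was 0.04 and 47 members were positive.

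On standard diet alone the median regime difference was 0.10 and on poor diet 0.11, and 57 of 73 members were positive on both (78.1%, against 42.6% of tested genes). These fits use other libraries of the same populations, so they are not independent. On standard diet edgeR called 0 members against 0.00982% of tested genes, and 1 had an unadjusted p below 0.05, against 6.38%. On poor diet it called 0 against 0.0589%, and 6 had an unadjusted p below 0.05, against 9.91%. DESeq2 called 1 member on each (1.37%, against 0.506% of genes on standard and 2.07% on poor diet), mRpL27 on standard diet (0.36 ± 0.10, adjusted p = 0.038) and mRpS11 on poor diet (0.43 ± 0.12, adjusted p = 0.0245).

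The interaction asks whether the diet difference was another in Selected than in Control populations. edgeR called 0 members, as it called 0% of tested genes, and 0 members had an unadjusted p below 0.05, against 1.52% of tested genes. DESeq2 also called 0, against 0.00982%. The median interaction was 0.02 on the log2 scale, with 39 members positive and 34 negative. The median ran from -0.07 without C3 to 0.07 without C6. With a median SE of 0.157 per gene, differences between regimes of the size of the diet effect itself were not detectable here.

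The highest interaction was that of mRpL42, at 0.24 ± 0.13. It was lower on poor diet in 6 of 6 Control populations (-0.30 ± 0.09) and in 5 of 6 Selected ones (-0.05 ± 0.10). mRpL34 stood at 0.17 ± 0.25 and mRpS11 at 0.16 ± 0.16. At the other end were mRpS18B (-0.19 ± 0.19), mRpL18 (-0.18 ± 0.23) and mRpS10 (-0.17 ± 0.27), 3 genes in which S1 had the highest level on standard diet. The adjusted p was 1 for each of these genes.

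Among members named for their role, all had lower values on poor diet and all but mRpS18C higher values in Selected populations. mRpS29, the homolog of mammalian DAP3, a GTP-binding protein of the small subunit, had medians of 22.7 CPM on standard and 19.4 CPM on poor diet, with a diet log2 fold change of -0.19 ± 0.10 and a regime value of 0.18 ± 0.11. mRpS30 stood at -0.19 ± 0.08 for diet and 0.12 ± 0.09 for regime. Among the 3 relatives of bacterial S18, the diet values were -0.25 ± 0.11 for mRpS18A, -0.16 ± 0.09 for mRpS18B and -0.14 ± 0.10 for mRpS18C. Their regime values were 0.10 ± 0.12, 0.29 ± 0.13 and -0.12 ± 0.08, and none of these values passed the test.

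Genes that work with the mitochondrial ribosome were compared from lists. The mitochondrial ribosomal proteins tko (S12) and bonsai (S15), which carry other symbols, had diet values of -0.21 ± 0.09 and -0.12 ± 0.07 and regime values of 0.13 ± 0.09 and 0.13 ± 0.08. Of 12 mitochondrial translation factors 9 were lower on poor diet, with a median of -0.09. Chosen for their values, the lowest of these was the release factor gene mRF1 (-0.38 ± 0.09, adjusted p = 0.0718), and the regime contrast had its highest value in the elongation factor gene mEFTu2 (0.37 ± 0.07, adjusted p = 0.0913). mEFTu2 ran from 26.5 to 35 CPM in Control and from 35.9 to 42.7 CPM in Selected populations on standard diet, which do not overlap. Its ranges on poor diet, and the share of all tested genes apart in this way on standard diet, are not given here. Over both diets, all 6 Selected populations lay above all 6 Control ones in 0.422% of tested genes.

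Of 19 mitochondrial aminoacyl-tRNA synthetase and amidotransferase genes 16 were lower on poor diet (median -0.08), and of 22 genes of mitochondrial transcription and RNA handling 16 (median -0.06). The 13 mRNAs of the mitochondrial genome, the templates of this ribosome, had a median of 0.10 with 8 positive. The 86 tested genes of the cytoplasmic ribosome had a median diet value of -0.08, with 79 negative, and a median regime value of -0.04. edgeR called 0 genes of each of these lists for diet and for regime. At an unadjusted p below 0.05 for diet there were tko, 3 translation factors, 3 synthetases, 1 gene of transcription and RNA handling, and 0 in the other 2 lists, and for regime there was mEFTu2 alone. Of all tested genes, 17.6% passed that threshold for diet and 10.7% for regime. DESeq2 called mRF1, mRRF1 and SerRS-m for diet and mEFTu2 for regime, and limma on voom values called mEFTu2 for regime and 0 for diet. The shares of all genes that DESeq2 called were 5.6% for diet and 2.18% for regime, and those of limma on voom values 1.62% and 1.23%. GatC and PolG2, in these lists, had identical counts and cannot be told apart.

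Over 24 libraries the median deviation of the members correlated with the mean log2 CPM of the translation factors at r = 0.91, of transcription and RNA handling at 0.87 and of the synthetases at 0.84. It correlated less with the cytoplasmic ribosomal proteins (0.45) and with the mRNAs of the mitochondrial genome (0.16). Among tissue markers the value was 0.72 for germline, -0.66 for hemocytes, -0.54 for oenocytes, -0.49 for neurons, -0.33 for muscle, 0.31 for fat body, 0.19 for midgut and 0.11 for Malpighian tubule. The points share library, normalisation and population, 2 libraries per population. Of the members, 67 correlated positively with the germline score, from -0.34 to 0.87 with a median of 0.59.

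**Figure D5:**
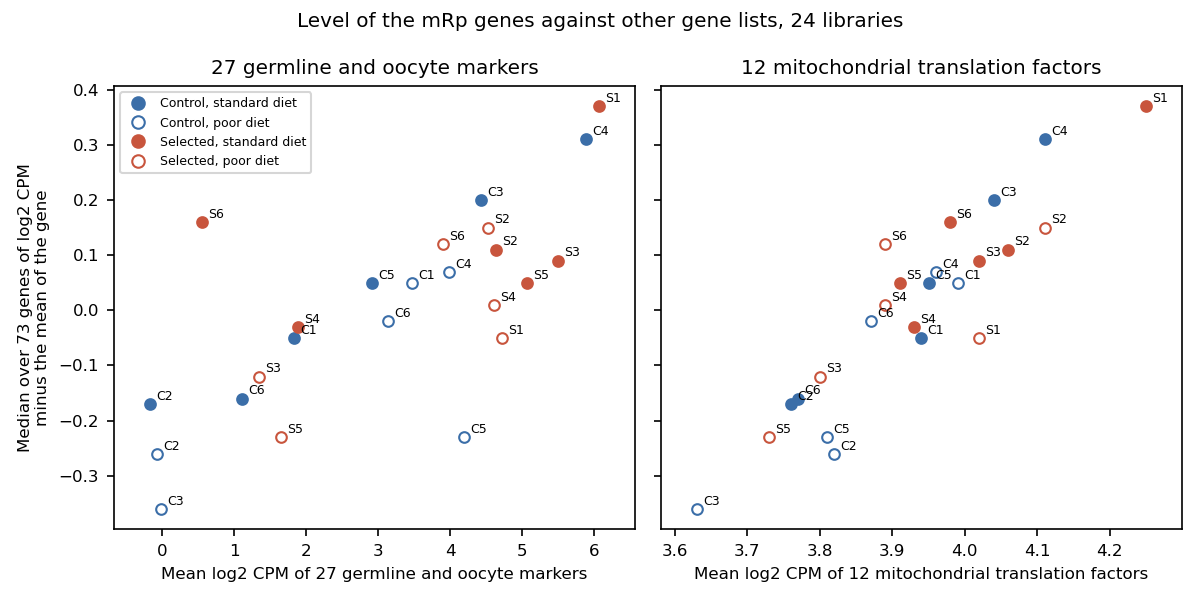
Median over the 73 genes of log2 CPM minus the mean of each gene, against the mean log2 CPM of 27 germline and oocyte markers (left, r = 0.72) and of 12 mitochondrial translation factors (right, r = 0.91), 1 point per library. S1 and C4 on standard diet lie at the upper right in both panels, and S6 on standard diet and C5 on poor diet stand apart from the rest on the left.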

How the data were processed

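Per the submitters' processing notes, the authors used kallisto 0.46.2, build BDGP6, edgeR and limma. Per the file headers, the deposited values are estimated counts and TPM for each transcript (unpaired reads of 150 bp), and the authors also deposited a table of log2 expression values for 8746 genes. Of 30944 transcripts, 30811 were joined to annotation BDGP6.54 (release 115), and the other 133, holding 0.28% of counts, were left out. Estimated counts were summed per gene and rounded. Total depth was 22.4 to 31.5 M per library. SE values of edgeR were derived from the fold change and the F statistic of its test. For regime they cover the spread between populations, and for diet and the interaction the spread between populations of the diet difference.

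Tests used edgeR 4.0.16 (quasi-likelihood F test, TMM, filterByExpr over 4 groups, 10184 genes, all 73 members kept) in R 4.3.3, with Benjamini-Hochberg adjustment over all tested genes and a threshold of 0.05. Regime was tested on sums over the libraries of each population (6 against 6), and diet on all 24 libraries with a block for population. The pairing comes from the labels, and deviations of the libraries of a population correlated at 0.22 on average (-0.23 to 0.69), against -0.05 for other populations of a regime. Alternatives used DESeq2 1.42.0, limma 3.58.1, other normalisation and filters, marker covariates and each population left out. CPM is TMM-normalised, and log2 CPM used a prior count of 2. The regime and diet fits of edgeR were tested on simulated data with planted changes larger than that of any member. Recovery of changes as small as those of the members was not tested. The members and all gene lists were chosen with earlier results of these data known. Named are the 5 highest and 5 lowest members for regime and for diet, the 3 for the interaction and for TPM, and 6 genes by role. Bacterial-type and mitochondria-specific genes were told apart by the number in the symbol alone; mRpL55, first set with the bacterial-type genes, was moved after seeing the data. Others named, such as mRpL22, mRpS25 and mRpL43, were chosen after their values were seen. No promoter or protein sequence was used here.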

Additional observations from a re-analysis of the deposited data

Results flagged for a closer look

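For the named members, the 4 groups of 6 libraries were searched for a library far from the other 5, and 6 of 96 gene and group combinations had one, where chance gives about 1 in 20. The median over members had none in its 4 groups. In log2 CPM, mRpS14 was highest in C1 among Control libraries on poor diet, at 4.46 with the next library at 3.91. Among Selected libraries on standard diet it was highest in S6, at 4.42 with the next at 4.06. mRpS5 was lowest in C5 on poor diet at 6.24, where the next Control library had 6.48. mRpL11 was highest in S1 on standard diet at 3.24, and the next Selected library had 2.77. mRpS18B was lowest in S5 on poor diet at 2.90, against 3.21 for the next. mRpL28 was lowest in S1 on poor diet at 5.59, against 5.75 for the next. In 0 members did the diet difference have one direction in all Control and the other in all Selected populations.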

How the results depend on the processing

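The sign of the median fold change held for regime (0.04 to 0.12) and for diet (-0.16 to -0.10) under all alternatives run. The number of members called was 0 except with DESeq2 (regime 2, diet 5, regime on standard diet 1, regime on poor diet 1), limma on voom values (regime 1) and the germline covariate (diet 2). Without each population in turn, the calls stayed at 0 and the medians ran from 0.05 to 0.12 for regime, -0.16 to -0.10 for diet, -0.07 to 0.07 for the interaction, 0.04 to 0.16 and 0.07 to 0.14 for regime on standard and on poor diet, and -0.21 to -0.06 and -0.15 to -0.07 for diet in Control and in Selected populations. Over 1.5 times apart from the full value were regime without C2 and S1 (0.05 each), regime on standard diet without C2 (0.06), C6 (0.04), S1 (0.04) and C4 (0.16), on poor diet without S2 (0.07), diet in Control without C3 (-0.06), diet in Selected without S1 and S5 (-0.07 each), and the interaction, whose full value is 0.02, without every population but S3. mRpL14 turned for regime, to -0.06 with the germline covariate and -0.06 with germline and midgut covariates. Without each population, the diet value of mRpS9 ran from -0.02 to 0.05 and that of mRpS5 from -0.01 to 0.05. The causes were not tested.

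With a replicate block of populations of like number, the regime median was 0.09 with 0 called and 2 members at an unadjusted p below 0.05, against 9 without it. The share of all tested genes with the block is not given here. Like-numbered populations correlated at -0.26 on average and 0 of 6 Control populations correlated best with their own number. Whether like-numbered populations share more than the number was not tested. With no replicate block, the diet median was -0.14 with 0 called. Each population gave 1 library per diet, which limits what small differences can be seen.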
